A study of Caenorhabditis elegans with 2 samples.

Results

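The genes described here encode the unfoldase CDC-48 and its core cofactor in the nematode Caenorhabditis elegans. The 5 members are cdc-48.1 and its paralogue cdc-48.2, ufd-1, and the near-identical pair npl-4.1 and npl-4.2, out of 19973 protein-coding genes of the nuclear genome. They were chosen by name with results known, since cdc-48.1 carries one of the strongest promoter peaks, so the signals are given as a description and were not tested. The series is chromatin immunoprecipitation sequencing (ChIP-seq) of LIN-40, the worm's MTA-family protein, which belongs to NuRD, a chromatin complex that joins a nucleosome remodeller to histone deacetylases. Its 1 group holds 2 biological replicates, numbered 3 and 4, of whole hermaphrodite worms of strain OP485. They were young adults harvested 57.25 hours after they were synchronized as starved, bleached L1 larvae. All worms stably expressed LIN-40 with GFP-FLAG at its C terminus, recovered with an antibody against GFP, and the sources used here do not say which promoter drives the fusion. Whole animals mix germline, intestine, muscle, neurons and other cells, so a signal cannot be assigned to a cell type.

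CDC-48, called p97 or VCP in mammals, is a hexameric AAA ATPase that pulls ubiquitinated proteins out of membranes, chromatin and complexes. UFD-1 and NPL-4 form the heterodimer that binds ubiquitin chains and feeds the substrate into the hexamer. In C. elegans this machine is known for degradation of proteins from the endoplasmic reticulum and for unloading of the replicative helicase, and the paralogues cdc-48.1 and cdc-48.2 act redundantly in embryos.

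The data are the authors' lists of regions on genome build ce11, 30000 for each replicate, 30000 for both samples pooled, and 3066 that passed an irreproducible discovery rate (IDR) threshold. Each region has a summit, the base of highest enrichment, and a signal value on the scale of the authors' caller. The IDR regions were the 3066 of highest signal in the pooled list, from 99.97 to 2816. A region was counted for a gene when its summit lay between 1000 bp upstream and 200 bp downstream of any annotated transcript start, here called the promoter window. Negative distances are upstream. Read depth is unknown, because the lists hold no read counts.

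The sequences behind the comparison are shown first, each in the direction of its gene, 5′ to 3′, from RefSeq's copy of the WBcel235 (ce11) assembly. For cdc-48.1 (chrII:10563473-10563673, minus strand) and cdc-48.2 (chrII:8137606-8137806, plus strand) they are the 201 bases centred on the strongest summit of the window. For ufd-1 (chrIV:12330891-12330975, minus strand) they are the 85 bases between the end of the gene F19B6.1 and the ufd-1 start. No ufd-1 summit lies in this stretch, and the motif match at the ufd-1 summit, at -143 to -138, lies outside it. For npl-4.1 (chrII:5631085-5631285, plus strand) and npl-4.2 (chrII:5622623-5622823, plus strand), which have no summit, they are the bases at the same distances from the start as in cdc-48.1, -266 to -66. Capitals mark matches to any of the 9 motifs searched.
cdc-48.1: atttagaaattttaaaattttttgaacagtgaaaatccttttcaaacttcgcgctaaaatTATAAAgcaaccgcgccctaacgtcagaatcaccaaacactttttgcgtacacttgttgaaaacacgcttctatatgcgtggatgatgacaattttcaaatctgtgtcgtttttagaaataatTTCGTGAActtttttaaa
cdc-48.2: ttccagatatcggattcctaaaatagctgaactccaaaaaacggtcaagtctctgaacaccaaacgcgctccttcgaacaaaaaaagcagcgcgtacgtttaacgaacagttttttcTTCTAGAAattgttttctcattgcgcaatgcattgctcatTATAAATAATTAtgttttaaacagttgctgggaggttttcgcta
ufd-1: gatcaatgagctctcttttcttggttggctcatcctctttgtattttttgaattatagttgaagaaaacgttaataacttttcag
npl-4.1: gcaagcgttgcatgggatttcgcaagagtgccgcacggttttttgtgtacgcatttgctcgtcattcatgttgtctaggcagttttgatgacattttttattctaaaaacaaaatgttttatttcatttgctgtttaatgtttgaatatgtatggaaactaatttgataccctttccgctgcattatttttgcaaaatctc
npl-4.2: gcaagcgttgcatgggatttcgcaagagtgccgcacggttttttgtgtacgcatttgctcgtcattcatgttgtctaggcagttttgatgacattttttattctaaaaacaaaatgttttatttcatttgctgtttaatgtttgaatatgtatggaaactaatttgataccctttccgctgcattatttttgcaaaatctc
The last pair of lines is the same sequence at places 8462 bp apart on chromosome II.

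Of the members, cdc-48.1 had an IDR summit in its promoter window, and cdc-48.2, ufd-1, npl-4.1 and npl-4.2 had none. This is 1 of 5, against 9.91% of all protein-coding genes, and since the choice of members rested on cdc-48.1, nothing is read from that share. Among the 3066 strongest regions of each replicate's own list it was also 1 of 5, against 9.98% of genes in replicate 3 and 9.9% in replicate 4. With any region of any strength it was 3 of 5 (cdc-48.1, cdc-48.2 and ufd-1) in each list, against 32.6% of genes in replicate 3, 32.9% in replicate 4 and 30.9% in the pooled list. The cdc-48.1 region spanned chrII:10563301-10563823, with an intergenic summit between the gene's own start and the 3′ end of C06A1.6. Its signal was 631 in replicate 3, 774 in replicate 4 and 1398 in the pooled list. Both replicates placed it among their strongest regions, at rank 23 in replicate 3 and rank 20 in replicate 4, and the pooled list placed it at rank 21.

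The cdc-48.1 summit ranked 7 among the 1675 IDR regions with a summit in a protein-coding promoter window and 2 among the 436 IDR regions of chromosome II. Counted by genes, cdc-48.1 ranked 9 of the 6174 protein-coding genes with a pooled region in the window. Its signal was 8.50 times the median of the IDR list, and 8.09 ± 0.37 (SD, n = 2 replicates) times the median of the 3066 strongest regions of each replicate's own list. The region was 523 bp wide, against a median of 395.5 bp for the IDR list, and 84.1% of IDR regions were narrower. It reached 107 bases past the start into the gene, and its summit lay at -166 bp. The replicates' summits lay 14 bp apart, at -179 bp in replicate 3 and -165 bp in replicate 4, against a median gap of 20 bp over the 1956 protein-coding genes with an IDR summit and a region in both replicates.

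cdc-48.2, the paralogue, had weak regions only. The strongest in its window (chrII:8137474-8137937) had a signal of 24.2 in replicate 3, 31.9 in replicate 4 and 56.4 in the pooled list, at ranks 7905, 6744 and 6030 of 30000. Its summit lay at -790 bp, in the intergenic stretch between cdc-48.2 and the divergent gene ctns-1, which encodes the lysosomal cystine transporter, and was nearly as far from the ctns-1 start (-788 bp). It counts for both genes, and with a narrower window of 500 bp upstream and 100 bp downstream cdc-48.2 had no region. The signal at cdc-48.1 was 24.8 times that at cdc-48.2 in the pooled list, 26.1 times in replicate 3 and 24.3 times in replicate 4. The lowest IDR signal was 1.77 times that of cdc-48.2. The deposited −log10 q-value of its pooled region was 4.13, the highest in that list, which 6816 pooled regions shared. A pooled signal at least as high as at cdc-48.2 was found at 15.9% of protein-coding genes.

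ufd-1, the partner of NPL-4 in the cofactor, had weak regions too. Its strongest region had a signal of 26.7 in replicate 3, 21.0 in replicate 4 and 40.2 in the pooled list (chrIV:12330783-12331246). The summit lay at -125 bp in the pooled list, at -283 bp in replicate 3 and at -104 bp in replicate 4. The replicates' summits were thus 179 bp apart, and the pooled list had another summit in the window at -338 bp with a signal of 36.1. All of these summits fell in the annotated 3′ UTR of F19B6.1, which lies upstream on the same strand with 85 bases between the genes. At least this pooled signal was found at 19.5% of protein-coding genes. The order of cdc-48.2 and ufd-1 was not the same in the replicates: ufd-1 was lower in replicate 4 and higher in replicate 3.

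**Figure D1:**
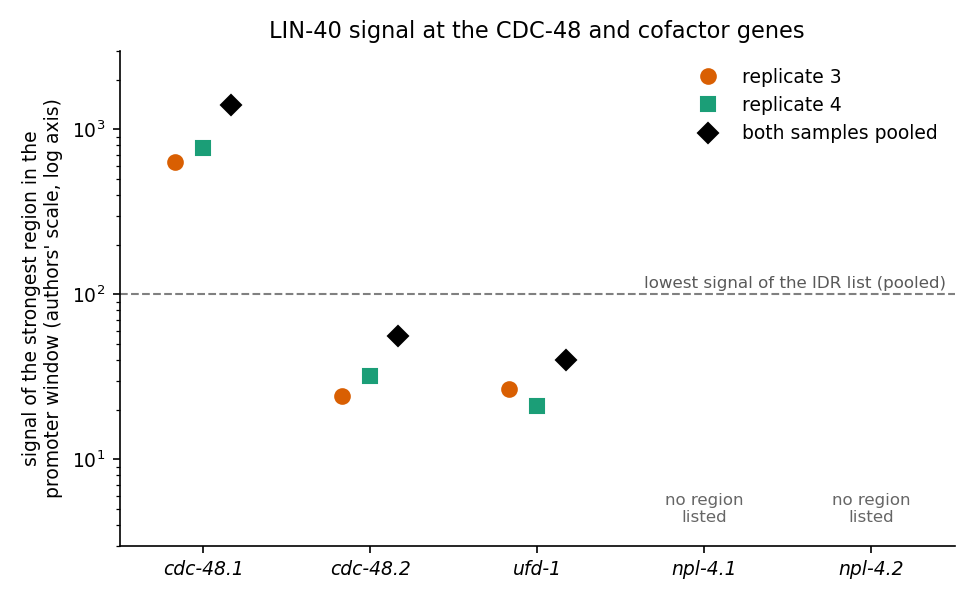
Signal of the strongest region in the promoter window of each member (y, authors' scale, log axis) in replicate 3 (circles), replicate 4 (squares) and the pooled list (diamonds), with the lowest pooled signal of the IDR list as a dashed line. cdc-48.1 stands at 1398 in the pooled list, above the line, cdc-48.2 (56.4) and ufd-1 (40.2) stand below it, and npl-4.1 and npl-4.2 have no listed region.

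**Figure D2:**
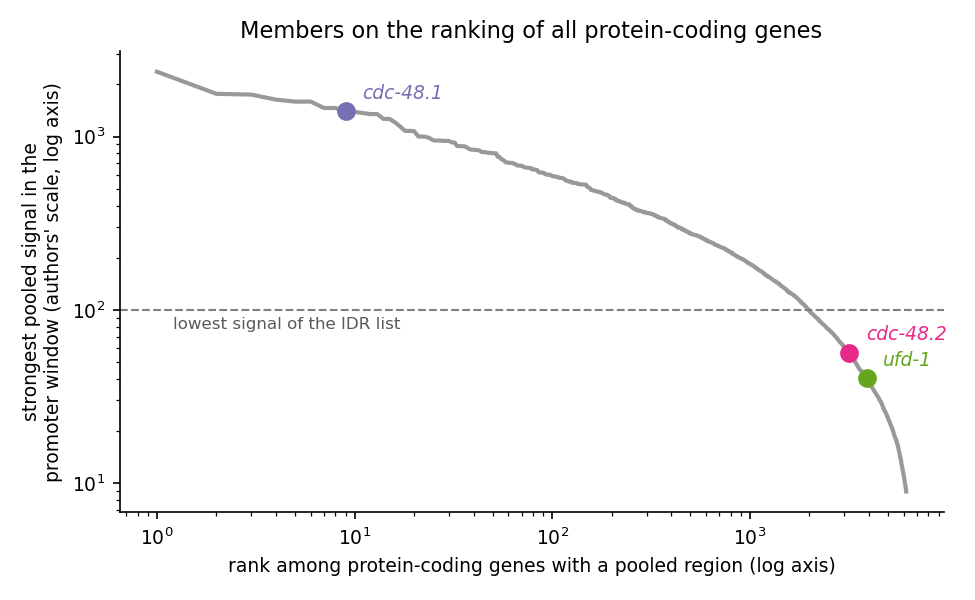
Strongest pooled signal in the promoter window (y, authors' scale, log axis) of the 6174 protein-coding genes with such a region, ranked from the highest (x, log axis), as a grey line with the members as points. cdc-48.1 sits at rank 9, while cdc-48.2 and ufd-1 lie past the dashed line of the lowest IDR signal.

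npl-4.1 and npl-4.2 had no region in their windows in any list, and both windows hold sequence that occurs more than once in the genome. The genes start 8462 bp apart on chromosome II (npl-4.1 at chrII:5631351-5633284, npl-4.2 at chrII:5622889-5624959, both on the plus strand). From 1325 bp upstream of the start to base 14 of the transcript, 1339 bases in all, their sequences were identical, and their coding sequences of 1587 nt differed at 8 positions. Of the words of 36 bases in either window, 3.09% occurred once in the genome, against 92.1% of all words of the genome. A read of 36 bases without such a word matches more than 1 place. With words of 50 and 100 bases the share was 4.34% and 9.07%.

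Other genes with repeated windows had no listed region either. Of the 253 protein-coding genes with under 10% of such words in the window (npl-4.1 and npl-4.2 among them), 0 had a region in the pooled list, 0 in replicate 3 and 0 in replicate 4. Of the 17388 genes with at least 90% of words occurring once, 33.2% had a pooled region, 35.1% a region in replicate 3 and 35.2% a region in replicate 4. The other members lay mostly in sequence of their own, with 90.7% of words occurring once in the window of cdc-48.1 and 100% in those of cdc-48.2 and ufd-1. The part of repeated sequence in the empty npl-4 windows was not tested, and the sources used here give neither the read length nor the handling of reads with several matches.

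The paralogues cdc-48.1 and cdc-48.2 contrast with the npl-4 pair. Their coding sequences (2427 and 2430 nt) were identical in 76.3% of alignment columns, but the longest run shared by the 1000 bp upstream of their starts was 10 bases, against all 1000 bases for the npl-4 pair. The longest run shared by their coding sequences was 35 bases, against 1215 bases for the npl-4 pair, so cdc-48.1 and cdc-48.2 differ far more in letters than the npl-4 pair.

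**Figure D3:**
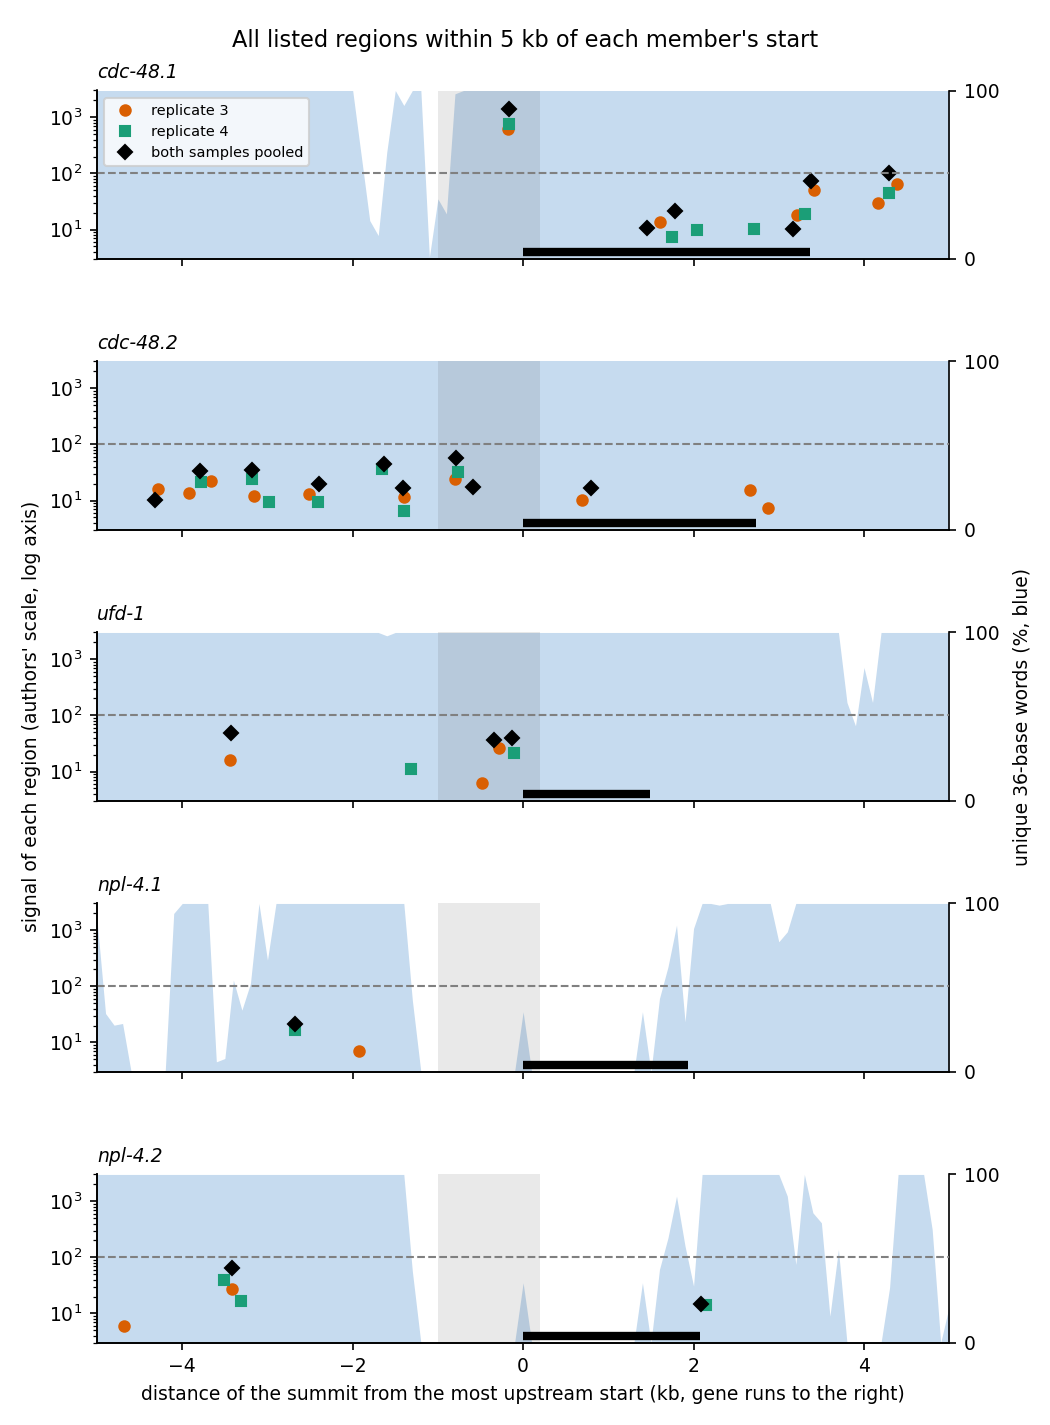
Every region listed within 5 kb of each member's most upstream start, by distance of its summit (x, kb, gene to the right) and signal (left axis, authors' scale, log), with the gene as a black bar, the promoter window shaded grey, and the share of 36-base words that occur once in the genome in blue (right axis, percent). Markers are as in the plot of the members' signal, and the dashed line is the lowest IDR signal. The windows of npl-4.1 and npl-4.2 hold no region and almost no unique words, while cdc-48.1 has 1 strong region at its start.

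The surroundings of the members also differed. Within 5 kb of its start, cdc-48.1 had 6 regions in the pooled list, and 2 of them were IDR regions. The other IDR region lay beyond the far end of the gene. Its summit, 922 bp past the 3′ end (chrII:10558882-10559345), had a pooled signal of 102.5, just inside the IDR list, and another 8 bp past the 3′ end had 72.5, the nearest outside it. The nearest summit to the IDR one had 63.8 in replicate 3 and 45.2 in replicate 4. The nearest to the other had 50.6 in replicate 3 and 19.3 in replicate 4. Within the body of cdc-48.1 no pooled summit had a signal above 21.3. Around cdc-48.2 the pooled list had 9 regions, from 10.3 to 56.4, of which 5 lay in ctns-1 or the 3′ UTR of ulp-4 and 1 in the coding sequence of cdc-48.2. ufd-1 had 3 pooled regions, the strongest of which (47.6) lay at -3432 bp, in an intron of F19B6.1. The nearest pooled regions to the npl-4 starts, at -2680 bp from npl-4.1 (21.5) and at 2083 bp from npl-4.2 (14.6), lay outside the identical stretch around the starts. The strongest pooled region within 5 kb of npl-4.2 (64.5) lay at -3414 bp, near the start of dhs-6.

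The annotation places the cdc-48.1 summit in 1 other promoter window. The snoRNA gene C06A1.9, which lies in an intron of cdc-48.1, has the summit in its window at -509 bp, and no other gene's window holds it. Another snoRNA gene, C06A1.8, lies in an intron further into cdc-48.1, and the strongest pooled summit in its own window had a signal of 21.3, at -694 bp. The nearest start on the far side is that of C06A1.6, which is transcribed in the same direction, with the summit 1105 bp past its start and beyond its end. The closest protein-coding start is that of cdc-48.1.

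The replicates' ratio at the members lay within the range of most genes with an IDR summit. The ratio of replicate 4 to replicate 3 was 1.23 at cdc-48.1, 1.32 at cdc-48.2 and 0.786 at ufd-1. Over the 1956 protein-coding genes with an IDR summit and a region in both replicates the median ratio was 1.16, and from the 5th to the 95th percentile it ran from 0.755 to 1.84, so none of these 3 stood outside that range. At cdc-48.1 the pooled signal was 0.995 times the sum of the replicates' signals, close to the median of 0.997 over those genes. At cdc-48.2 it was 1.00 times the sum, and at ufd-1, where the summits were apart, 0.842 times. That ufd-1 value lay below the 5th percentile of those genes (0.938). The ufd-1 summit gap of 179 bp lay above their 95th percentile (118 bp). The ufd-1 ratio sets a summit at -283 bp in replicate 3 against one at -104 bp in replicate 4, which may not be the same region.

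The protein-coding genes whose signals in both replicates were nearest to those of cdc-48.1, by distance on the log2 scale over 2 replicates, were fbxb-58, K11H12.8, rpl-15 and, tied for the last place, Y17G9B.5 and rpl-20. fbxb-58, an F-box gene on X, had 643 in replicate 3 and 751 in replicate 4 (distance 0.05). Its summit lay at -997 bp, at the edge of the promoter window. K11H12.8 and rpl-15, which encodes a protein of the large ribosomal subunit, share 1 region on chromosome IV with 605 and 746 (distance 0.08). Y17G9B.5 and rpl-20, another gene of that subunit, share another on the same chromosome with 674 and 789 (distance 0.10).

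**Figure D4:**
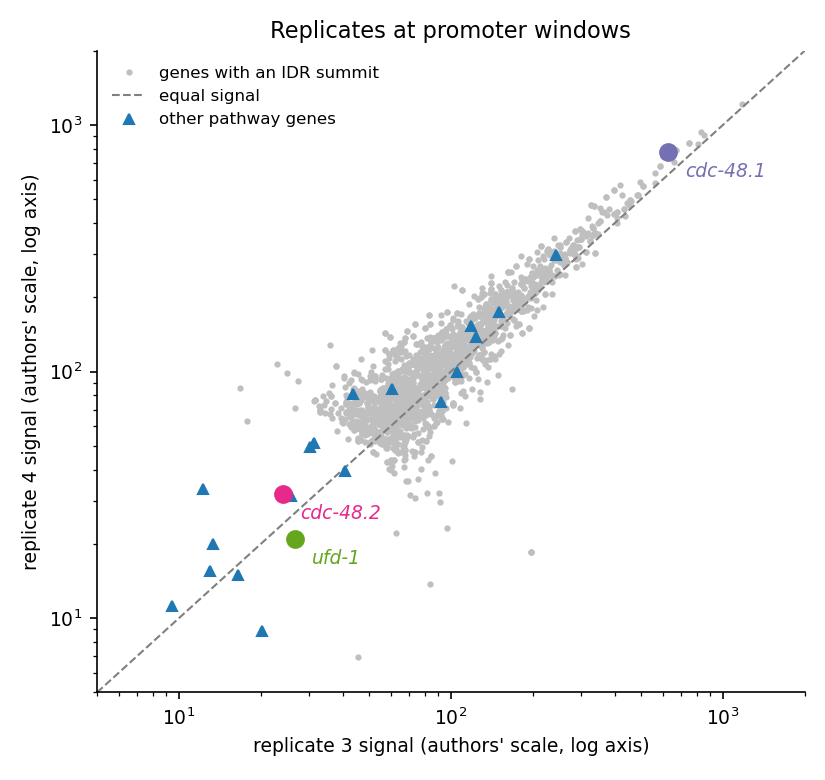
Signal of the strongest region in the promoter window in replicate 3 (x) and replicate 4 (y), both log axes on the authors' scale, for genes with an IDR summit (grey), other pathway genes with a region in both lists (triangles) and the members (large circles), with the line of equal signal dashed. cdc-48.1 lies near the top end of the cloud at 631 and 774, and cdc-48.2 and ufd-1 lie below it.

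The letters at the cdc-48.1 summit were poorer in G and C than at most strong regions, and near the median of promoters. The 201 bases around it had a G and C content of 31.8%, against a median of 42.8% at IDR summits, and 5.06% of IDR summits had less. Promoters at the same distances from the start had a median of 33.8%, and from the 5th to the 95th percentile they ran from 24.9% to 45.8%. The weak summits of ufd-1 and cdc-48.2 had 28.4% and 37.8%, so low content was not particular to cdc-48.1. Of the 9 motifs searched on both strands, 2 were present at the cdc-48.1 summit. TATAAA lay at -206 to -201 and TTCNNGAA, an inverted pair of heat shock element units, at -83 to -76, both on the gene's strand. These were present at 13.0% and 8.35% of IDR summits and at 25.2% and 12.4% of all promoters at the same distances. The other motifs were not in those letters. They were GAGAGA, present at 41.3% of IDR summits and 15.2% of promoters at the same distances, the motif CTGCGTCT (13.3% and 2.66%), the E-box CACGTG (10.3% and 3.72%) and CNCCGCCC (4.17% and 2.57%). The GATA-type motif TGATAA (17.9% and 21.9%), the CCAAT box (29.8% and 33.0%) and the homeodomain-type motif TAATTA (4.83% and 11.8%) were absent too. GAGAGA had no match anywhere in the cdc-48.1 promoter window either, while 50.9% of all promoter windows of that length held it.

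Of the weaker members, cdc-48.2 shared motifs with cdc-48.1. At the cdc-48.2 summit 3 motifs matched. They were TTCNNGAA at -773 to -766, the TATAAA motif at -733 to -728 and, directly beside it, the TAATTA motif at -727 to -722. TTCNNGAA and TATAAA were also the matches at the cdc-48.1 summit, and TAATTA was not found there. Both are short, at 12.4% and 25.2% of promoters at the distances of the cdc-48.1 summit, so little is read from sharing them. GAGAGA lay elsewhere in the cdc-48.2 window, at -312 to -307 and 35 to 40. At the ufd-1 summit CACGTG lay at -143 to -138, in the 3′ UTR of F19B6.1. The npl-4 windows held the same matches in both copies, with overlapping GAGAGA matches at -934 to -929 and -932 to -927 on the opposite strand. A match describes the letters and is not a measured binding site.

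Beyond the core members, 27 genes of the CDC-48 pathway were examined, and 7 of them (25.9%) had an IDR summit in the window, against 9.91% of all protein-coding genes. All 27 names matched the annotation. The median of their strongest pooled signal, with genes that had no region taken as 0, was 20.7, against 0 for all protein-coding genes, and 11 of the 27 had no pooled region. The list was chosen with results of these data known and was not tested. The highest pooled signal among the 27 was 537, against 1398 at cdc-48.1.

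The degradation pathway of the endoplasmic reticulum held the strongest of them. It had an IDR summit at 3 of 9 genes, against 9.91% of all protein-coding genes. ubc-6, a membrane-bound ubiquitin-conjugating enzyme, had 243 in replicate 3, 298 in replicate 4 and 537 in the pooled list, at -281 bp (chrII:7478683-7479277), with another IDR summit of 277 in the same interval at -53 bp. Both summits also lay in the window of the divergent gene aka-1, the stronger at -369 bp. ubc-7, another ubiquitin-conjugating enzyme, had 92.3, 75.0 and 169, and the derlin gene cup-2, part of the export channel, had 43.8, 81.2 and 123. The cup-2 summit lay closer to the start of tag-353 (-269 bp) than to its own (-618 bp), and 2 non-coding RNA genes lay closer still. In replicate 3 alone, cup-2 was not among genes with one of the 3066 strongest regions. The ubiquitin ligase gene sel-11 (Hrd1) and its relative hrdl-1 had pooled signals of 9.29 and 16.4. sel-1, which encodes the partner of SEL-11, had 46.0, marc-6 had 56.9, and der-2 and rnf-5 had no pooled region.

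Of the UBX proteins, adaptors that dock onto CDC-48, 2 of 6 had an IDR summit, against 9.91% of all protein-coding genes. Groups this small were not tested, and nothing is read from their shares. ubxn-2, the p47 orthologue, had 149.9 in replicate 3, 174 in replicate 4 and 318 in the pooled list at -170 bp, and no other gene's window held that summit. ubxn-3, the FAF1 orthologue, had 118, 153 and 268 at -754 bp. ubxn-4 had a pooled signal of 20.7, and ubxn-5 and ubxn-6 had no region in any list. Of the other partners, ufd-2, a ubiquitin chain elongation factor, had 60.8, 84.6 and 151 at -283 bp, the 1 IDR summit among 7 genes (14.3%). The ubiquitin ligase gene hecd-1 had a pooled signal of 77.6 and the deubiquitinase gene atx-3 had 38.9, while cdc-48.3, png-1 and chn-1 had no region in any list. Of the shuttle proteins that carry ubiquitinated substrates to the proteasome, the ubiquilin gene ubql-1 had 124, 138 and 263, rad-23 had 30.4, 49.3 and 79.5, and ddi-1 had none. The ubql-1 summit also lay in the windows of pdi-3 (-680 bp) and 2 non-coding RNA genes. Of the ligase that marks the replicative helicase for unloading, lrr-1 had a pooled signal of 29.1 and cul-2 had no pooled region.

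**Figure D5:**
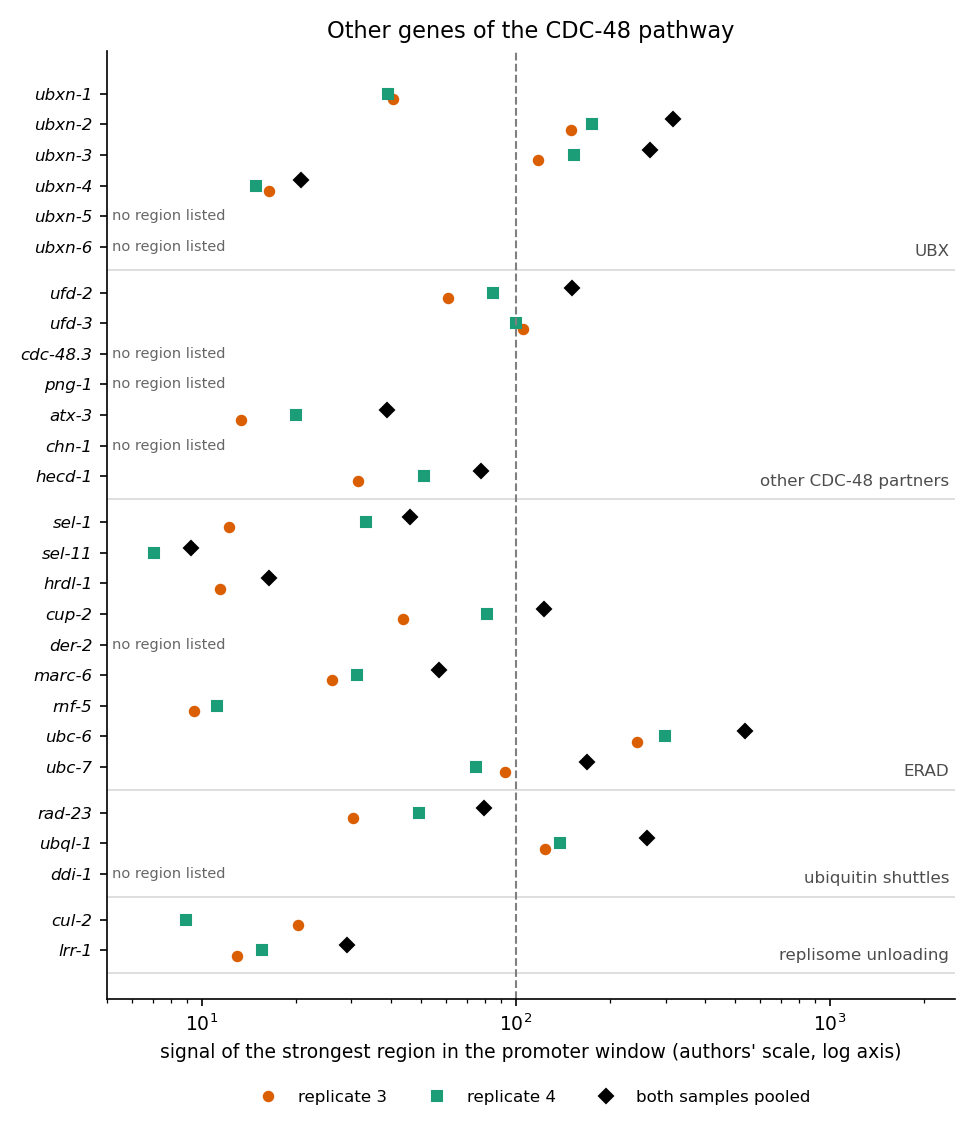
Signal of the strongest region in the promoter window (x, authors' scale, log axis) of the 27 other pathway genes by role, in replicate 3 (circles), replicate 4 (squares) and the pooled list (diamonds), with the lowest pooled IDR signal dashed. 7 genes have a pooled value to the right of the line, led by ubc-6 at 537. ufd-3, ubxn-1, cul-2 and rnf-5 have replicate values but no pooled one.

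ufd-3, the orthologue of the ubiquitin-binding cofactor PLAA, was strong in both replicates and had no pooled summit in its window. The cause was not tested. Its signal was 105 in replicate 3 and 100 in replicate 4, at ranks 953 and 1352, with summits 6 bp apart. ubxn-1 likewise had 40.7 in replicate 3 and 39.4 in replicate 4, with no pooled summit. So did cul-2 (20.3 in replicate 3 and 8.90 in replicate 4) and rnf-5 (9.44 and 11.2), at lower signals. Of the 1000 strongest regions, 21 in replicate 3 and 13 in replicate 4 overlapped no pooled region. Of the 3066 strongest it was 105 (3.42%) and 92 (3.0%). The ubxn-1 regions, at ranks 4055 and 5202, were in neither set. These counts ask for any overlap, while the genes were counted by a pooled summit in the window. cdc-48.2 and ufd-1 differ from these genes in that each had a pooled summit as well as one in each replicate.

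The summits of the pathway genes are shown for ubc-6 (chrII:7478806-7479006, plus strand), as the strongest, and ufd-2 (chrII:8062358-8062558, plus strand), as a CDC-48 partner with GAGAGA. Both are in the direction of the gene with motif matches in capitals.
ubc-6: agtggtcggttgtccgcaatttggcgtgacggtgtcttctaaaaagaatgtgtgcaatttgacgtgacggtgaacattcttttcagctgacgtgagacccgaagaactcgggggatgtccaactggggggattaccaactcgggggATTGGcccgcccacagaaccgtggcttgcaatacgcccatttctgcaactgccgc
ufd-2: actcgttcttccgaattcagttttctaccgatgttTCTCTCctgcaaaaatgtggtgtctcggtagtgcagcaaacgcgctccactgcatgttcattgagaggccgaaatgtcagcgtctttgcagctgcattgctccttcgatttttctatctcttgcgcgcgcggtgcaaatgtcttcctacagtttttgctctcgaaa
ufd-2 holds GAGAGA on the opposite strand, as TCTCTC, and ubc-6 holds CCAAT on the opposite strand, as ATTGG. The motif GAGAGA was at 3 of the 7 pathway summits (ubxn-3, ufd-2 and cup-2) and CACGTG at 2 (ubxn-3 and ubql-1), while CTGCGTCT was at 0, against 41.3%, 10.3% and 13.3% of all IDR summits. Their G and C content ran from 37.3% at ubc-7 to 54.2% at ubc-6, above the 31.8% of cdc-48.1 in each case.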

How the data were processed

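Per the labels, regions come from ChIP-seq of whole worms. Per the deposited file listings, the authors called 1 list on each sample and 1 on both pooled, each against a control alignment, and derived the IDR list from these; libraries of the control were not analysed here, and the sources used here name no caller, aligner or IDR threshold. Signal values are the authors', on a scale not given, and were compared within a list. The deposited −log10 q-values of all IDR regions equal 4.13, the ceiling of the pooled list, so they ranked nothing. Most pooled regions (89.2%) had the same width of 464 bp, also those of cdc-48.2 and ufd-1.

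Transcript starts came from Ensembl release 115 on WBcel235, the assembly of ce11, and sequence from RefSeq's copy; of the ce10 lists only the lowest IDR signal was used. Words of 36 bases were counted over both strands, and the count was tested on simulated data. Coding sequences were aligned globally with Biopython 1.88. No test was run. The members, the pathway list and the motifs were chosen with earlier results of these data known. Named are the members, pathway genes with an IDR summit, neighbours of a summit and the 4 genes nearest to cdc-48.1 in signal, with any gene tied for the last place; pathway genes without an IDR summit were named after their values were seen.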

Additional observations from a re-analysis of the deposited data

How the results depend on the processing

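cdc-48.1 remained the 1 member counted under all 10 alternatives run. Since the choice of members rested on its strong peak, and the others lay below the IDR list, this is a description and no added support. Alternatives that kept the IDR list were other windows, starts and overlaps, the nearest start and the stronger 50% of regions. The others replaced it with each replicate's own strongest regions, both of these together, or pooled regions with at least the lowest signal of the ce10 IDR list (71.2). The last 2, and the words of 50 and 100 bases, were chosen after seeing the data. The pathway count of 7 ran from 5 to 9: the window of 500 and 100 bp lost cup-2 and ubxn-3, the stronger 50% lost cup-2 and ufd-2, the nearest start lost cup-2, and the ce10 threshold added hecd-1 and rad-23. With a replicate left out it was 7 to 8: without replicate 3 ufd-3 was added, and without replicate 4 ufd-3 was added and cup-2 lost, as also in the strongest regions of both replicates together. The signal of cdc-48.1 over the median was 8.12 against promoter regions alone, and 7.83 to 8.35 with a replicate left out. The window of 500 and 100 bp held no cdc-48.2 region. With 50 bp either side of the cdc-48.1 summit, 1 motif was present (TATAAA). No paired analysis was possible because the samples form 1 group. Unknown depth limits what the empty windows of other genes show.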
